A study of Xenopus tropicalis with 12 samples.

Results

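The genes described here belong to families that include the enzymes and complex subunits that write, erase and read marks on histones and DNA or that move nucleosomes. What each member acts on was not examined. They were taken by symbol from the gene names attached to the peaks of 12 lists of thyroid hormone receptor (TR) binding. The symbols were those of the prmt, kmt, setd, ezh, kdm, kat, hdac, sirt, dnmt, tet, mbd, smarc and chd families together with dot1l, eed and suz12. This gave 89 genes of the 19768 named in the lists. A gene was called bound in a condition when peaks of all 3 libraries of that condition overlapped in one region within the gene or 5 kb on either side of it. By this rule 22 of the 89 genes (24.7%) were bound in at least 1 condition, against 24.2% of all genes.

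The binding was measured by ChIP-Seq, in which chromatin is pulled down with an antibody and the recovered DNA is sequenced, in the intestine of Xenopus tropicalis tadpoles at stage 54. The tadpoles were wild type or carried a knockout of the TRα gene (TRα-/-), came from the same parents, and were left untreated (0 nM) or kept for 18 h in 10 nM of the thyroid hormone T3. The antibody was polyclonal and recognised both TRα and TRβ, and the intestine was taken whole, so the cells that carried each site were not resolved. Each of the 4 conditions had 1 ChIP DNA sample merged from several animals and 3 technical replicate libraries made from it, so every spread below is one of library making and sequencing and not of animals.

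TR binds DNA both with and without hormone. Without T3 it recruits corepressor complexes that contain histone deacetylases, and with T3 it recruits coactivators that include histone acetyltransferases, arginine methyltransferases and nucleosome remodelling complexes. The genes for such enzymes can themselves carry TR sites, and in Xenopus the histone H3K79 methyltransferase gene dot1l and the arginine methyltransferase gene prmt1 are known for a link to T3 and metamorphosis.

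The lists held between 17414 peaks (TRα-/- with T3, replicate 1) and 63333 peaks (wild type without T3, replicate 3), and read totals were not given in the sources used here. The pileup of a peak, the number of overlapping fragments at its summit, was therefore not scaled to depth, and peaks were also ranked within each library by their −log10 p, rank 1 being the strongest. The TRα-/- libraries with T3 had the 3 shortest lists, of 17414, 26018 and 30916 peaks. In counts from the full lists, this length cannot be told apart from the condition itself. The features listed for the 89 genes spanned a median of 29182 bp, against 12694 bp over all genes, which gives these genes a longer window in which a peak can fall. The lists held a complete gene feature of 57 members (64.0%, against 69.3% of all genes). For the other 32 the window covered the listed pieces alone. The pieces of dnmt1, prmt5, setd6 and sirt6 spanned under 1 kb, and these 4 genes were bound in no condition.

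In wild-type intestine without T3, 16 of the 89 genes were bound (18.0%, against 16.0% of all genes). With T3, 21 were bound in wild type (23.6%, against 21.2%). In TRα-/- intestine, 12 were bound without T3 (13.5%, against 13.5%) and 13 with T3 (14.6%, against 11.5%). In each condition the share of these genes lay within a few percentage points of the share of all genes. When all genes were split by extent into 3 groups of equal size, 49 of the 89 genes fell among the longest, 30 in the middle group and 10 among the shortest. Bound in any condition were 13 of the 49 (26.5%, against 31.9% of all genes of that extent), 9 of the 30 (30.0%, against 22.7%) and 0 of the 10 (0.00%, against 17.8%). Extent is the span of the listed features, and most of the 10 had no complete gene feature listed. The 3 groups are therefore groups of listed extent and not of gene length.

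**Figure D1:**
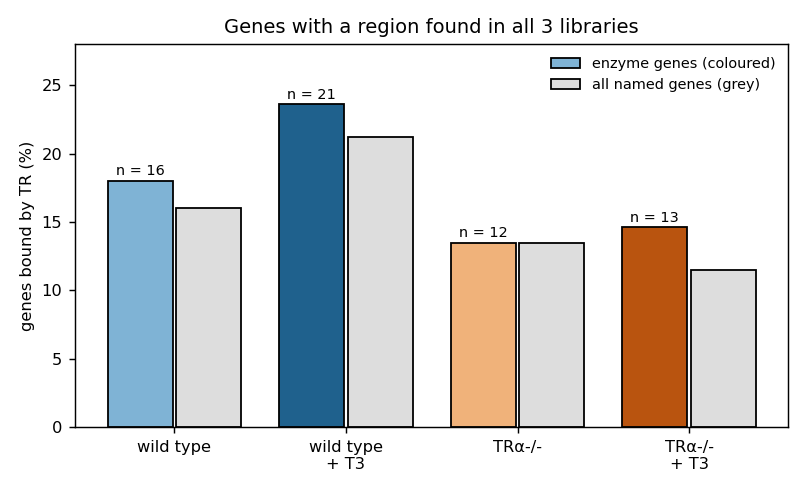
Percentage of genes bound (y axis) in each of the 4 conditions (x axis), for the 89 enzyme genes (coloured bars, with the number bound above them) and for all 19768 named genes (grey bars); bound means a region found in all 3 technical replicates. The coloured bars reach 18.0, 23.6, 13.5 and 14.6% and the grey bars 16.0, 21.2, 13.5 and 11.5%.

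In all 4 conditions together, 10 of the 89 genes were bound (11.2%, against 8.52% of all genes). They were the chromodomain remodellers chd1, chd3 and chd4, the methyl-CpG binding protein gene mbd2, the demethylase gene kdm7a and the SET-domain genes setd1a, setd2, setd4, setd5 and setd9. CHD3 and CHD4 are the nucleosome-moving ATPases of the NuRD complex, which also holds histone deacetylases, and MBD2 is a NuRD subunit that binds methylated DNA. By genotype, 7 genes were bound in wild type alone (7.87%, against 8.56% of all genes) and 1 gene in TRα-/- alone (1.12%, against 1.06%). In at least 1 condition of both genotypes 14 were bound (15.7%, against 14.5%), and these include the 10 genes above.

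The 22 bound genes had 48 regions in their windows. Of these, 29 lay inside the gene, 11 upstream and 8 downstream (60.4, 22.9 and 16.7%, against 65.8, 17.8 and 16.4% of all pairs of a gene and a region). Of the 41 regions of genes with a known start, 4 had their centre within 1 kb of it (9.76%, against 6.32% of all pairs): these belonged to chd3, mbd2, setd1a and setd9. An exon listed for the gene was overlapped by 0 of the 48 regions, against 2.87% of all pairs, although the lists hold only the features nearest to a peak. A neighbouring gene shared the window of 6 of the 48 regions (12.5%, against 11.0% of all regions in a window), and such a site cannot be given to a single gene by position. A peak was present in all 12 libraries at 16 of the 48 regions (33.3%, against 26.0% of all 15152 regions).

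**Figure D2:**
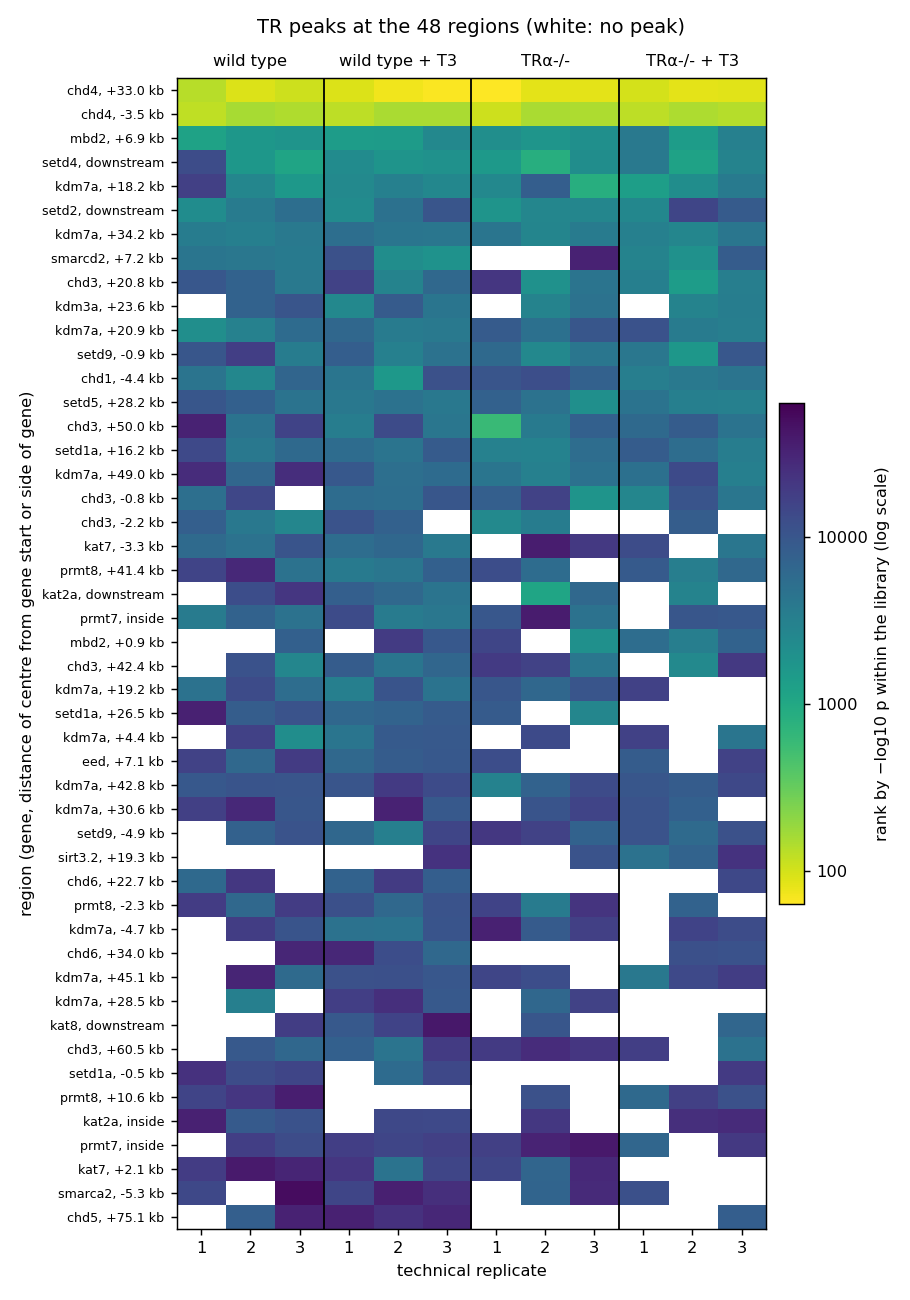
Rank of the peak by −log10 p within its library (colour, log scale, yellow being strongest) for the 48 regions (rows, by gene and by the distance of the region's centre from the gene start, or the side of the gene where no start was listed) in the 12 libraries (columns, grouped by condition); white means that no peak was called. The 2 chd4 regions stay between ranks 64 and 157 in every library, and 16 rows have no white cell.

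Among the remodellers, chd4 (gene ID 100124711) had the strongest peaks of all 89 genes. Its first region, chr7:1732514-1733709 (Xenbase v9.1, as are all positions here), lay 3222 bp past the end of the gene. In replicates 1, 2 and 3 it ranked 133, 90 and 108 in wild type, 90, 73 and 65 in wild type with T3, 64, 84 and 84 in TRα-/-, and 98, 83 and 87 in TRα-/- with T3. Its place near the top of every list differed little between conditions, although the 3 TRα-/- libraries without T3 all ranked it better than the 3 wild-type ones. The window of nop2 also held this region. Over the 12 libraries 69 other regions with a peak in every library had a better median rank.

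The second chd4 region, chr7:1768966-1770231, lay 2854 bp before the gene. It ranked 123, 157 and 142 in wild type, 125, 153 and 152 with T3, 107, 150 and 147 in TRα-/-, and 125, 146 and 136 in TRα-/- with T3. The ranks of the 4 conditions overlapped. No other gene's window held it. The other 46 regions were weaker, with a best rank of 583 and a pileup of at most 44 fragments, against pileups of 47 to 239 at the first chd4 region and 39 to 140 at the second. Peaks were called without a control library, so TR binding at the chd4 regions cannot be told apart from enrichment found in any ChIP.

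The fold enrichment over the local background at the chd4 regions was lower in TRα-/- than in wild type when T3 was given. At the upstream region it was 33.7, 32.5 and 30.8 in wild type with T3 and 24.9, 25.3 and 27.4 in TRα-/- with T3, and at the downstream region 27.1, 25.8 and 26.7 against 21.2, 21.0 and 22.2. At both regions the 3 wild-type libraries lay above the 3 TRα-/- libraries. The same held for 4 of the 21 regions with a peak in all 6 of these libraries, those of chd4, mbd2 and prmt8, and for 36.9% of all such regions of the genome, while TRα-/- lay above wild type at 0 of 21 (0.693% of all). The pileups at the upstream region were 79, 122 and 140 in wild type with T3 and 43, 52 and 69 in TRα-/- with T3. Fold enrichment is pulled toward 1 in a shallow library, so depth and genotype cannot be told apart here.

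**Figure D3:**
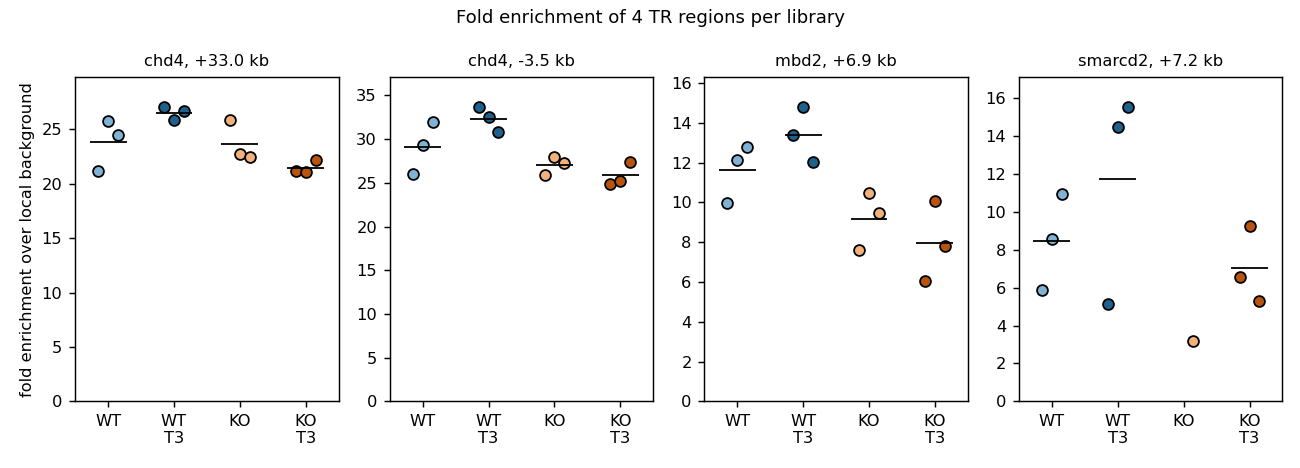
Fold enrichment over local background (y axes, each from 0) per library (points) in wild type (WT) and TRα-/- (KO), without and with T3 (x axes), at the 2 chd4 regions, the mbd2 region and the smarcd2 region; lines are means where 2 or more libraries had a peak. With T3, wild type lies above TRα-/- at the first 3 regions, and smarcd2 has a peak in 1 of the 3 TRα-/- libraries without T3.

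The chd3 gene (gene ID 100216299) had 6 regions, of which 2 had a peak in all 12 libraries. The stronger of these, chr3:133812605-133813410, lay inside the gene and ranked 9658, 7281 and 3901 in wild type, 15981, 2853 and 6059 with T3, 21268, 1910 and 4456 in TRα-/-, and 3213, 1377 and 3328 in TRα-/- with T3. The ranges overlapped in each of the 4 comparisons of genotype or T3, although TRα-/- with T3 ranked better than wild type without T3 in all libraries. That pair differs in both genotype and T3, no share of all regions was taken for it, and its fold enrichments overlapped. Another region had its centre at -827 bp from the start and a peak in 11 libraries, and was without one in the third wild-type library.

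The chd1 gene, whose product binds methylated H3K4 at transcribed genes, had 1 region, chr1:173608201-173609531, lying 3775 bp before it. It ranked 4424, 2564 and 6604 in wild type, 4331, 1587 and 11345 with T3, 10097, 12078 and 7312 in TRα-/-, and 3296, 3833 and 4452 in TRα-/- with T3. The 3 TRα-/- libraries without T3 were thus below the wild-type libraries without T3 and below the TRα-/- libraries with T3, with no overlap in either case. The fold enrichments of this region were separated in the same way, at 5.97, 10.4 and 7.96 in wild type, 4.22, 4.87 and 5.91 in TRα-/-, and 6.42, 6.68 and 6.94 in TRα-/- with T3. Rank separations in these 2 directions were met by 6.05 and 8.74% of all regions compared. In the second TRα-/- library without T3 a better peak, at rank 4033, lay elsewhere in the window of chd1.

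The gene smarcd2, for an accessory subunit of the BAF (SWI/SNF) remodelling complex, was bound in wild type in both conditions and in TRα-/- with T3, but not in TRα-/- without T3. Its 1 region, chr10:8610174-8611014 inside the gene, ranked 4284, 4115 and 3624 in wild type, 11514, 2108 and 1874 with T3, and 2848, 1911 and 8531 in TRα-/- with T3. In TRα-/- without T3 a peak was called in the third library alone, at rank 32936 with a pileup of 3 fragments. The weakest of the other 9 libraries had a pileup of 6. The TRα-/- libraries without T3 held more peaks than those with T3 (38961 to 44196 against 17414 to 30916). Their peaks had lower median pileups, 3, 4 and 4 against 4, 5 and 5. The part of depth at this gene was not tested.

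Of the other remodellers, chd5, chd6 and smarca2 were bound in wild type with T3 and in no other condition. SMARCA2 is 1 of the 2 alternative ATPases of the BAF complex. Their regions were weak: at smarca2, 4641 bp before the gene, the pileups with T3 in wild type were 5, 5 and 7, and a peak was also called in 2 of the 3 libraries of wild type and of TRα-/- without T3. At chd5 the pileups were 3, 7 and 7, with peaks in 2 of the 3 wild-type libraries without T3. The chd6 gene had 2 regions, both inside it, with pileups of 7, 8 and 14 and of 3, 9 and 17 in wild type with T3. The other ATPase of that complex, SMARCA4, which acts as a coactivator remodeller, had a gene bound in no condition, with peaks in 2, 1, 3 and 2 of the 3 libraries of wild type, wild type with T3, TRα-/- and TRα-/- with T3 and a best rank of 14611. In all, 7 of 18 remodeller genes were bound in any condition (38.9%, against 24.2% of all genes), and their median extent was 48142 bp. They were 4 in wild type, 7 with T3, 3 in TRα-/- and 4 in TRα-/- with T3 (against 16.0, 21.2, 13.5 and 11.5% of all genes). The unbound ones beside smarca4 were chd2, chd7, chd8, chd9, smarca1, smarca5, smarcad1, smarcb1, smarcc2 and smarcd1.

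Of 20 genes classed by symbol with the histone lysine methyltransferases and the Polycomb repressive complex 2 (PRC2), 6 were bound in any condition (30.0%, against 24.2% of all genes). There were 6 in each wild-type condition and 5 in each TRα-/- condition. Without and with T3, 16.0 and 21.2% of all genes were bound in wild type and 13.5 and 11.5% in TRα-/-. Of the setd symbols 5 of 9 and of the kmt symbols 0 of 7 were bound in any condition (24.2% of all genes), and the 5 were bound in all 4 (8.52% of all genes). This contrast was seen in the values and was not tested. SETD1A methylates H3K4 and SETD2 trimethylates H3K36, while SETD4, SETD5 and SETD9 share the SET domain. At setd4 the region chr2:9378436-9380082, 3759 bp past the listed pieces of the gene, ranked 12602, 1633 and 1131 in wild type, 2260, 1747 and 1913 with T3, 1548, 827 and 2162 in TRα-/-, and 3816, 1167 and 2834 in TRα-/- with T3. Apart from the first wild-type library, with a pileup of 4, the ranks lay between 827 and 3816.

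The setd2 region, chr6:4259473-4260258, lay 1239 bp past the listed pieces of the gene. It ranked 2207, 3569 and 5148 in wild type, 2232, 4821 and 10121 with T3, 1751, 2656 and 2656 in TRα-/-, and 2613, 15050 and 8785 in TRα-/- with T3. Its fold enrichment in TRα-/- was 8.08, 8.92 and 9.09 without T3 and 6.99, 3.85 and 5.21 with T3, with no overlap. At setd9 the region chr1:178020445-178021122, centred at -880 bp from the start, was the 1 region within 1 kb of a start that was bound in all 4 conditions. It ranked 9953, 17651 and 3425 in wild type, 7935, 3130 and 4621 with T3, 6015, 2540 and 4208 in TRα-/-, and 4065, 1626 and 9631 in TRα-/- with T3. The conditions overlapped.

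The setd5 region, chr4:128523595-128525442 inside the gene, ranked 9874, 7581 and 4572 in wild type, 4022, 4711 and 3985 with T3, 7323, 4659 and 2001 in TRα-/-, and 4502, 3213 and 3133 in TRα-/- with T3. The ranges overlapped in each comparison of genotype or T3, while TRα-/- with T3 ranked better than wild type without T3 throughout. For that pair, too, no share of all regions was taken, and the fold enrichments overlapped. The setd1a gene had 3 regions. The one inside the gene, chr9:1722478-1725680, had a peak in all 12 libraries at ranks between 2961 and 13608. The other 2 were absent from some conditions. The region whose centre was at -509 bp from the start, which also lay in the window of fbxl19, had peaks in all 3 wild-type libraries without T3 at pileups of 2, 8 and 7 and in 0 of the 3 TRα-/- libraries without T3. The region 4745 bp past the end had peaks in all 3 wild-type libraries with T3 at pileups of 12, 21 and 19 and in 0 of the 3 TRα-/- libraries with T3.

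In PRC2, which methylates H3K27, eed was bound in both wild-type conditions and in neither TRα-/- condition. Its region, chr2:165513016-165513686 inside the gene, ranked 16208, 6091 and 19192 in wild type and 6080, 8424 and 9515 with T3. In TRα-/- it had a peak in the first library without T3, at rank 12289, and in libraries 1 and 3 with T3, at ranks 8495 and 16209. All pileups were low, 3 to 11 in wild type and 3 to 4 in TRα-/-. The catalytic subunit gene ezh2 was bound in no condition, although it had a peak in 11 of 12 libraries and a best rank of 3753. In wild type without T3 its first library had no peak. In the other conditions the peaks of the 3 libraries did not share a single place. With a peak in 2 of 3 replicates ezh2 passed in both wild-type conditions. The suz12 symbol was not among the gene names analysed here.

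The gene dot1l had a peak in 10 of 12 libraries, with a best rank of 857, was bound in no condition, and passed in both wild-type conditions when 2 of 3 replicates were asked for. The H3K4 methyltransferase gene kmt2c, chosen after its values were seen, had a best rank of 1021, was likewise bound in no condition, and passed in all 4 conditions at 2 of 3. These genes were thus not without peaks. At 2 of 3 replicates 29.9 and 32.5% of all genes passed in wild type without and with T3, and 15.6% in all 4 conditions. The best rank of dot1l was in TRα-/- with T3, where it did not pass at 2 of 3. The other unbound genes of the class were ezh1, kmt2a, kmt2d, kmt2e, kmt5a, kmt5b, kmt5c, setd1b, setd3, setd6 and setd7.

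Among the 14 lysine demethylase genes, kdm7a and kdm3a were bound in any condition (14.3%, against 24.2% of all genes), 1, 2, 1 and 1 genes in wild type, wild type with T3, TRα-/- and TRα-/- with T3. The shares of all genes in these conditions were 16.0, 21.2, 13.5 and 11.5%. The unbound demethylase genes were kdm1a, kdm1b, kdm2a, kdm2b, kdm3b, kdm4a, kdm4b, kdm4c, kdm5b, kdm5c, kdm6a and kdm8. KDM7A removes methyl groups from H3K9 and H3K27. It had 11 regions, more than any other of the 89 genes, of which 10 lay inside the gene, whose extent was 53176 bp, and 5 had a peak in all 12 libraries. A gene with a region had a median of 1, and 60 of 4774 such genes (1.26%) had at least 11. The pileups at the 11 regions lay between 2 and 44.

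The strongest kdm7a region, chr3:270396-271274, ranked 16843, 2657 and 1604 in wild type, 2473, 3095 and 2583 with T3, 2490, 7970 and 820 in TRα-/-, and 1305, 2127 and 3627 in TRα-/- with T3. The conditions overlapped. At a second region, chr3:285929-287810, the ranks were 3433, 3197 and 3878 in wild type, 5189, 4303 and 4210 with T3, 4254, 2730 and 3532 in TRα-/-, and 3148, 2664 and 4156 in TRα-/- with T3. The wild-type libraries with T3 were below those of wild type without T3 and of TRα-/- with T3, without overlap. The fold enrichments at this region did overlap, at 6.57, 8.65 and 8.80 in wild type and 7.12, 8.43 and 8.06 with T3, so that the separation was one of rank.

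The kdm7a region chr3:272966-274078, ranked 2062, 2993 and 5616 in wild type, 6268, 3604 and 3841 with T3, 8600, 4914 and 9979 in TRα-/-, and 11099, 3598 and 3300 in TRα-/- with T3. Its fold enrichments without T3 were 7.95, 8.47 and 6.63 in wild type and 4.81, 6.45 and 4.79 in TRα-/-, which did not overlap. At chr3:301374-301983, TRα-/- ranked better than wild type without T3, at 4291, 3148 and 4762 against 26378, 6393 and 25227. At chr3:280807-281580, peaks were called in all 3 wild-type libraries with T3, at pileups of 5, 7 and 14, and in 0 of 3 TRα-/- libraries with T3. At chr3:301374-301983 the fold enrichments overlapped (5.87, 8.29 and 7.03 against 2.72, 6.99 and 4.18), and at chr3:272966-274078 the ranks did, so that each of these separations held for a single measure.

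**Figure D4:**
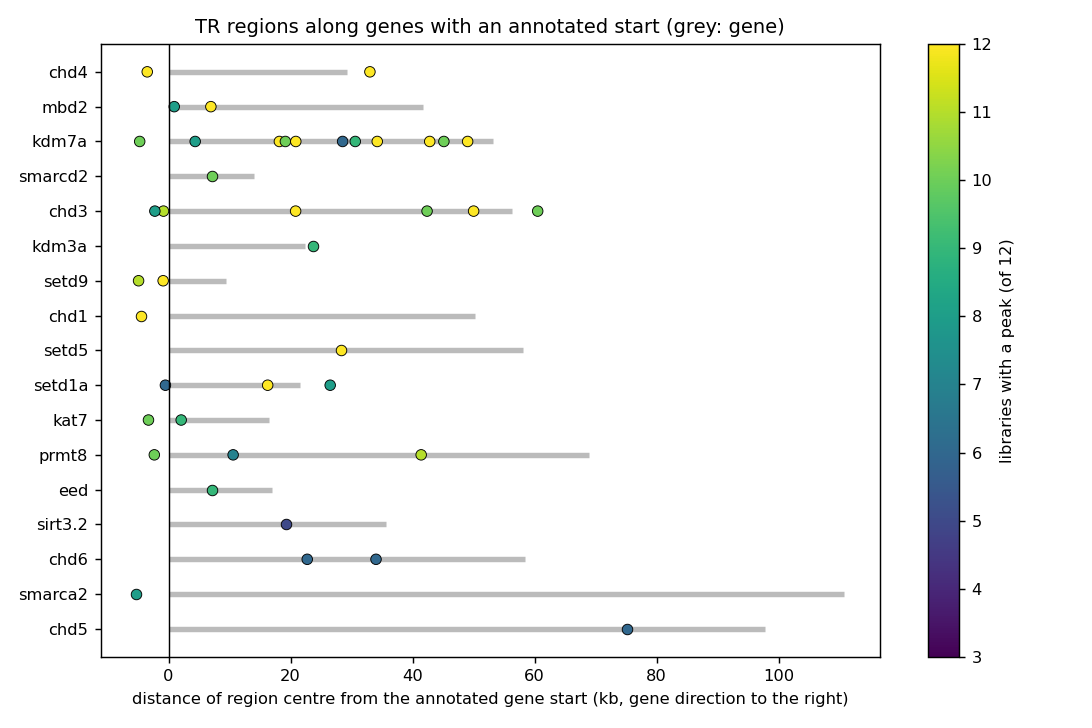
Distance of the region's centre from the annotated gene start (x axis, kb, gene direction to the right) for the 41 regions of the 17 bound genes with a listed start (rows), with the extent of each gene in grey and the number of libraries with a peak in colour. The kdm7a gene carries 11 regions and chd3 6, and the 2 chd4 regions lie on either side of the gene.

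The kdm3a gene, for an H3K9 demethylase, was bound in wild type with T3 alone. Its region, chr1:11407909-11408360, lay 1115 bp past the gene and in the window of chmp3 as well. It ranked 2497, 8584 and 4345 in wild type with T3. In each of the other 3 conditions libraries 2 and 3 had a peak there, at ranks between 2844 and 10201, and library 1 had none. The call of wild type with T3 alone therefore rested on the first library of each condition.

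Of 6 histone acetyltransferase genes, kat2a, kat7 and kat8 were bound in any condition (3 of 6, against 24.2% of all genes), 2 in wild type, 3 with T3, 1 in TRα-/- and 0 in TRα-/- with T3. The shares of all genes in these conditions were 16.0, 21.2, 13.5 and 11.5%, and the difference was not tested. KAT2A (GCN5) is the acetyltransferase of the SAGA coactivator complex, KAT7 (HBO1) acetylates H3 and H4, and KAT8 (MOF) acetylates H4K16. The kat2a gene was bound in both wild-type conditions and in neither TRα-/- condition, but at different places. Without T3 it was bound at a region inside the gene, chr10:2472487-2474129, with pileups of 2, 8 and 11. With T3 it was bound at a region 4952 bp past the listed pieces of the gene, chr10:2459725-2459920, with pileups of 8, 16 and 21. The first had a peak in 2 of 3 wild-type libraries with T3, in 1 of 3 TRα-/- libraries and in 2 of 3 of TRα-/- with T3. The second, which the window of dhx58 also held, had one in 2 of 3, 2 of 3 and 1 of 3 libraries of wild type, TRα-/- and TRα-/- with T3, with a best rank of 1097 in TRα-/-.

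The kat7 gene was bound in every condition but TRα-/- with T3. Its region inside the gene, chr10:9811761-9812436, had peaks in all 9 libraries of the other conditions, at pileups of 3 to 21, and in 0 of 3 libraries of TRα-/- with T3. It ranked 14898, 6589 and 28483 in TRα-/- without T3, 18586, 38775 and 30964 in wild type, and 21116, 4573 and 14960 in wild type with T3. The lists of TRα-/- with T3 held 17414, 26018 and 30916 peaks, and the part of list length at this region was not tested. The second kat7 region, chr10:9816806-9818110, 2632 bp before the gene, ranked 5741, 4727 and 10361 in wild type and 5372, 6279 and 3849 with T3, and had a peak in 2 of 3 libraries in each TRα-/- condition. The kat8 gene was bound in wild type with T3 alone, at a region shared with the window of prss8 and with pileups of 7, 9 and 5. The genes kat2b, kat5 and kat6a were bound in no condition.

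Of 16 deacetylase genes, 1 was bound in any condition (6.25%, against 24.2% of all genes): none of the 8 hdac genes and, of the 8 sirt genes, sirt3.2. It was bound in TRα-/- with T3 alone. The region, chr3:12594616-12595185 inside the gene, ranked 4653, 6924 and 22856 there with pileups of 6, 6 and 4, and a peak was also called in the third library of wild type with T3 and the third of TRα-/-. The hdac genes, hdac1, hdac2, hdac4, hdac5, hdac7, hdac8, hdac9 and hdac10, were not without peaks. All 12 libraries had a peak at hdac4 and at hdac9, as at mbd5 among the other unbound genes, but not at places shared by 3 replicates. With 2 of 3 replicates hdac2 passed in both wild-type conditions. So did hdac7 and hdac9 in wild type, hdac5 in wild type with T3 and hdac4 in TRα-/-. The median extent of the deacetylase genes was 15441 bp, against 29182 bp over the 89 genes and 12694 bp over all genes. No complete gene feature was listed for hdac1, hdac4, hdac10, sirt3.1, sirt4, sirt5 and sirt6. The other unbound sirtuins were sirt1, sirt2, sirt3.1, sirt5, sirt6 and sirt7. The 1 gene of the 89 without a peak in any library was sirt4, whose listed pieces spanned 1396 bp.

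Of 8 genes for DNA methylation and its readers, mbd2 was bound (12.5%, against 24.2% of all genes in any condition), and this in all 4 conditions. Its main region, chr1:190327508-190327961 inside the gene, was the strongest after those of chd4 by median rank. It ranked 1177, 1638 and 1757 in wild type, 1378, 1405 and 2517 with T3, 2080, 1708 and 2040 in TRα-/-, and 3843, 1402 and 3149 in TRα-/- with T3. Ranks overlapped in each of the 4 comparisons. Fold enrichments with T3 were 13.4, 14.8 and 12.03 in wild type and 6.05, 10.1 and 7.82 in TRα-/-, with no overlap, at pileups of 21, 41 and 32 against 8, 17 and 14. A second region, centred 935 bp past the start, had peaks in all 3 libraries in TRα-/- with T3 alone. The genes dnmt1, mbd3, mbd4, mbd5, mbd6, tet2 and tet3 were bound in no condition. Of these unbound genes only tet2 had a complete gene feature listed, as mbd2 did. The windows of the others covered the listed pieces alone.

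Of 7 arginine methyltransferase genes, prmt7 and prmt8 were bound in any condition (28.6%, against 24.2% of all genes), 2 in each wild-type condition and 1 in each TRα-/- condition. Without and with T3, 16.0 and 21.2% of all genes were bound in wild type and 13.5 and 11.5% in TRα-/-. In mammals PRMT8 is known mainly from brain. The prmt8 region chr3:13750119-13750915, inside the gene, had peaks in all 3 wild-type libraries, in 0 of 3 with T3, in 1 of 3 in TRα-/- and in all 3 in TRα-/- with T3. The ranks were 15227, 21230 and 34939 in wild type and 6015, 17228 and 11250 in TRα-/- with T3. All 7 peaks were small, with pileups of 3 to 6. Another prmt8 region, chr3:13780755-13781903, had peaks in all 3 libraries of both wild-type conditions and of TRα-/- with T3 and in 2 of 3 of TRα-/-. With T3 its fold enrichments were 8.59, 10.5 and 7.90 in wild type and 4.16, 7.18 and 6.03 in TRα-/-, without overlap.

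The prmt7 gene was bound in every condition but TRα-/- with T3. Its stronger region, chr4:49714547-49715488, ranked 3535, 7242 and 4729 in wild type, 13035, 3525 and 4076 with T3, 9618, 37041 and 4615 in TRα-/-, and 10014 and 9415 in libraries 2 and 3 of TRα-/- with T3. Its other region, chr4:49676587-49677744, had peaks in libraries 1 and 3 of TRα-/- with T3 and lacked one in library 2, so that the gene was bound in all 4 conditions without replicate 1 and also without replicate 2. The coactivator gene prmt1 had a peak in 4 of 12 libraries, 0, 1, 2 and 1 in the order of conditions above, with a best rank of 14763, and was bound in no condition. Its complete gene feature was not listed. The genes prmt2, prmt5, prmt6 and prmt9 were also unbound.

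The effect of T3 on binding was compared within each genotype. In wild type, 5 genes were bound with T3 and not without it, chd5, chd6, kat8, kdm3a and smarca2 (5.62%, against 7.13% of all genes), and 0 the reverse (1.89% of all genes). In TRα-/-, 3 were bound with T3 and not without it, prmt8, sirt3.2 and smarcd2 (3.37%, against 2.11%), and 2 the reverse, kat7 and prmt7 (2.25%, against 4.10%). All 3 TRα-/- libraries without T3 had a peak at the upstream prmt8 region, but these did not join into one region. No gene gained binding with T3 in both genotypes, and none lost it in both. The direction in wild type, with gains and without losses, was that of all genes, where gains outnumbered losses as well.

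The genotypes were compared at each dose. Without T3, 4 genes were bound in wild type and not in TRα-/-, eed, kat2a, prmt8 and smarcd2 (4.49%, against 5.07% of all genes), and 0 the reverse (2.59% of all genes). At prmt8 each TRα-/- library without T3 had a peak at the upstream region, though not in one joined region. With T3, 9 genes were bound in wild type and not in TRα-/-, chd5, chd6, eed, kat2a, kat7, kat8, kdm3a, prmt7 and smarca2 (10.1%, against 10.2%), and 1 the reverse, sirt3.2 (1.12%, against 0.476%). The loss of calls in TRα-/- with T3 was as frequent among these genes as among all genes, and the shorter lists of that condition cannot be told apart from the genotype.

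A stricter contrast asked for peaks in 3 of 3 libraries on one side and in 0 of 3 on the other. Among the 48 regions, T3 in wild type gave 0 regions (2.73% of all regions) and its absence 1, in prmt8 (0.832%). In TRα-/-, T3 gave 0 (0.614%) and its absence 1, in kat7 (2.12%). Without T3, TRα-/- against wild type gave 0 (0.647%) and wild type against TRα-/- 1, in setd1a (3.56%). With T3, the values were 1 for TRα-/-, again in prmt8 (0.145%), and 3 for wild type, in kat7, kdm7a and setd1a (9.88%). When the 17414 strongest peaks of each library were used, a smarcd2 region met this contrast for T3 in TRα-/- (1.19% of all regions). Without T3, regions of kat7 and smarcd2 met it for wild type against TRα-/- (2.16%). With T3, a prmt8 region met it for TRα-/- (0.337%) and a setd1a region for wild type (3.72%). The other directions gave 0 regions (0.482 to 2.32% of all regions). This alternative was chosen after seeing the data.

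Rank ranges were compared where both conditions had 3 of 3 libraries with a peak. With T3 against without it in wild type, 0 of 25 regions ranked better with T3 (7.41% of all such regions) and 1 better without it, in kdm7a (4.14%). In TRα-/-, 1 of 18 ranked better with T3, in chd1 (8.74%), and 0 without it (6.46%). Without T3, 2 of 20 ranked better in TRα-/-, in chd4 and kdm7a (8.58%), and 1 in wild type, in chd1 (6.05%). With T3, 1 of 21 ranked better in TRα-/-, in kdm7a (7.51%), and 0 in wild type (7.25%). Each of these counts was 0, 1 or 2 regions.

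For fold enrichment, 2 of the 25 regions were higher with T3 in wild type, in chd4 and setd1a (11.1% of all such regions), and 0 higher without it (0.942%). In TRα-/-, 1 of 18 was higher with T3, in chd1 (4.82%), and 2 higher without it, in chd4 and setd2 (6.31%). Without T3, 0 of 20 were higher in TRα-/- (1.75%) and 2 in wild type, in chd1 and kdm7a (7.01%). The downstream chd4 region had fold enrichments of 21.2, 25.8 and 24.5 in wild type and 27.1, 25.8 and 26.7 with T3, and of 25.8, 22.7 and 22.5 in TRα-/- and 21.2, 21.0 and 22.2 with T3. It was thus higher with T3 in wild type, by a narrow margin (25.84 against 25.78 between the nearest libraries), and lower with T3 in TRα-/-, while its ranks with and without T3 overlapped in both genotypes.

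The number of the 89 genes with a peak in a single library gave 1 value per library that could be tested. It was 63, 61 and 72 in wild type, 54, 51 and 65 with T3, 65, 57 and 64 in TRα-/-, and 38, 48 and 52 in TRα-/- with T3. The 3 TRα-/- libraries with T3 lay below the 3 without it, and in the other comparisons of genotype or T3 the conditions overlapped. They also lay below the 3 wild-type libraries without T3, a pair that differs in both genotype and T3 and was not tested. The means were 65.3 ± 5.86 (SD, n = 3), 56.7 ± 7.37, 62 ± 4.36 and 46 ± 7.21. By exact two-sided permutation tests, the smallest p of which is 0.1 at this size, p was 0.3 for T3 in wild type, 0.1 for T3 in TRα-/-, 0.6 for genotype without T3 and 0.2 for genotype with T3. After Benjamini-Hochberg adjustment for 4 comparisons these exact p-values became 0.4, 0.4, 0.6 and 0.4, and none passed. The share of the 89 genes with a peak ran from 42.7 to 80.9% and that of all genes from 31.1 to 72.1%, and the former was the higher in each library.

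**Figure D5:**
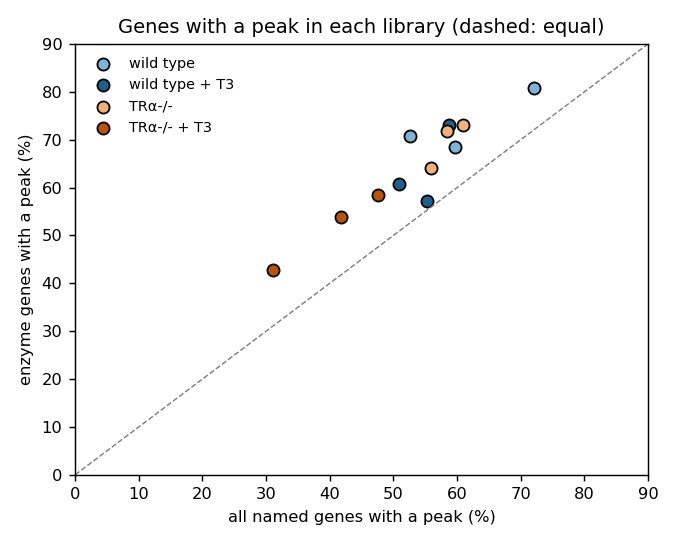
Percentage of the 89 enzyme genes with a peak (y axis) against that of all named genes (x axis), 1 point per library coloured by condition; the dashed line marks equal shares. All 12 points lie above the line, and the TRα-/- libraries with T3 lie lowest, down to 42.7 and 31.1%.

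The 67 genes bound in no condition were thus mostly not free of peaks: 66 had a peak in at least 1 library, 33 had one in all 3 libraries of some condition but at different places, and 21 were bound when 2 of 3 replicates were asked for. No share of all genes was taken for these counts, so they cannot be read as particular to these genes. In a single library 31.1 to 72.1% of all genes had a peak, and the windows of the 89 genes were longer. A list of 50 partner symbols outside the families, such as coactivators and subunits of Polycomb, BAF and NuRD complexes, gave 39 named genes. Of these 3 were bound in wild type, the arginine methyltransferase gene carm1, the PRC2 cofactor gene jarid2 and the lysine methyltransferase gene whsc1l1, and 4 with T3, whsc1 being added. In TRα-/- 1 was bound, carm1, and 0 with T3. The shares of all genes in these 4 conditions were 16.0, 21.2, 13.5 and 11.5%. In any condition 4 of the 39 were bound (10.3%, against 24.2% of all genes), and in all 4 conditions 0 (8.52% of all genes). The difference between the partner list and the 89 genes was not tested.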

How the data were processed

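TR ChIP-Seq peak lists of 12 libraries (3 technical replicates of each of 4 conditions) were used. The authors aligned reads with Bowtie2 2.3.4.1 to Xenbase v9.1, removed redundant reads with samtools, called peaks in each library with MACS2 2.1.1.20160309 without a control library at q under 0.05, and attached the nearest annotated features. The deposited pileup is a signal in fragments, not scaled to depth; the deposited fold enrichment is a ratio to the local background with a pseudocount; the deposited −log10 p-values and −log10 q-values are those of MACS2. Shallow libraries can miss weak sites, and without a control library regions that are enriched in any ChIP are not removed.

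Lines were reduced to 1 per peak. Peaks overlapping by at least 1 bp were joined, regions with peaks of all 3 replicates were kept, and genes took regions within their listed features or 5 kb on either side. A catalogue of 15152 regions joined the 4 conditions. Peaks were ranked by −log10 p. Counts of genes with a peak were compared by exact two-sided permutation tests with Benjamini-Hochberg adjustment over 4 comparisons (Python 3.11.15, numpy 2.4.6, pandas 2.3.3, scipy 1.17.1; plots with matplotlib 3.10.9). Region and test code was tested on simulated peaks. The members and lists were chosen with earlier results of these data known. Genes named with their ranks were those with the best median rank at a region with a peak in all 12 libraries (up to 10), those bound in one genotype's 2 conditions alone, those bound with T3 alone or without it alone in both genotypes, those with a region in all 3 libraries of a condition and 0 of the compared one, those with a region within 1 kb of the start bound in all 4 conditions, and prmt1, dot1l, ezh2 and smarca4 where listed; other genes were named by count, and values given for them were chosen after they were seen. All 89 gene IDs matched the RefSeq gene table by ID and symbol. A gene that the symbol patterns would cover is not reported here. Promoter sequences were not used here. Alternatives were peaks at −log10 q of at least 5, the 17414 strongest peaks per library, an overlap of 50% of both peaks, 2 of 3 replicates, each replicate left out, the gene extent alone and the replicate block; genes with a complete feature alone and regions in the window of 1 gene alone were added after seeing the data.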

Additional observations from a re-analysis of the deposited data

Results flagged for a closer look

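The chd4 region past the end of the gene moved in opposite directions with T3 in the 2 genotypes by fold enrichment. Every wild-type library with T3 (mean 26.5 ± 0.633, SD, n = 3) lay above every wild-type library without it (23.8 ± 2.38), and every TRα-/- library with T3 (21.5 ± 0.621) lay below every TRα-/- library without it (23.7 ± 1.86). The change with T3 was 4.93 higher in wild type than in TRα-/-, and this difference was not tested. The separation in wild type was narrow, 25.84 against 25.78 between the nearest libraries. The same pattern was met by 23 of the 3934 regions with a peak in all 12 libraries (0.585%) and by 1 of the 16 such regions of these genes. By rank, the T3 and no-T3 libraries overlapped at this region in each genotype. The pileups were 47, 126 and 163 in wild type, 112, 208 and 239 with T3, 63, 104 and 99 in TRα-/-, and 61, 86 and 106 in TRα-/- with T3, and the part of depth in the pattern was not tested.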

How the results depend on the processing

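The counts of bound genes moved with the rule. At −log10 q of at least 5 they were 7 in wild type, 7 in TRα-/- and 6 in TRα-/- with T3 (16, 12 and 13 under the rule used), while 1508, 1187 and 1169 of all 19768 genes were bound (3155, 2665 and 2272 under the rule used). With 2 of 3 replicates they were 31, 33, 24 and 20 in wild type, wild type with T3, TRα-/- and TRα-/- with T3, against 29.9, 32.5, 24.3 and 19.0% of all genes. With the gene extent alone they were 12 in wild type with T3, 7 in TRα-/- and 8 in TRα-/- with T3, against 2573, 1585 and 1345 of all genes, whose counts moved in the same direction under each of these 3 rules. Without 1 replicate they ran from 19 to 27 in wild type, from 25 to 28 with T3, from 17 to 18 in TRα-/- and from 13 to 18 in TRα-/- with T3. The shares of all genes ran from 17.8 to 25.3, 23.5 to 28.1, 16.6 to 18.9 and 12.8 to 15.9% in the same order. Each such alternative keeps fewer peaks, a narrower window or fewer required libraries by construction. The strongest peaks alone, an overlap of 50% of both peaks, genes with a complete feature alone and regions in the window of 1 gene alone kept every count within 1.5 times, the last pair chosen after seeing the data. Of the 10 genes bound in all 4 conditions, chd4, kdm7a and mbd2 kept this at −log10 q of at least 5, 9 of 10 (all but setd9) with the strongest peaks, chd3, chd4, kdm7a, mbd2 and setd9 at an overlap of 50%, and chd3, kdm7a, mbd2, setd1a and setd5 within the gene extent.

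The difference in genes with a peak per library reversed in 3 cases, each far from the smallest p of 0.1 in its exact test: T3 in wild type went from -8.67 to 4.33 at −log10 q of at least 5 (exact p 0.8), and with the strongest peaks the genotype difference went from -3.33 to 1.33 without T3 (exact p 0.8) and from -10.7 to 1.67 with T3 (exact p 0.7). The cause was not tested, although the last 2 hold the number of peaks equal. The T3 difference in TRα-/-, -16 under the rule used (exact p 0.1), kept its sign but became smaller. It was -4.33 at −log10 q of at least 5 (exact p 0.3) and -1.67 with the strongest peaks (exact p 0.8). With a replicate block that pairs libraries by number the differences stayed at -8.67, -16, -3.33 and -10.7 with exact paired p of 0.25, 0.25, 0.5 and 0.25, 0.25 being the smallest p possible, so that the block could not give a call. Within same-numbered pairs the count was lower with T3 in 3 of 3 pairs in each genotype, and in TRα-/- than in wild type in 3 of 3 with T3 and 2 of 3 without it. Deviations of same-numbered libraries correlated between 0.548 and 0.999 in 5 of 6 pairs of conditions and at -0.35 in TRα-/- with against without T3. Each correlation rests on 3 libraries per condition, so it cannot decide whether the numbers mark pairs. Since the correlation was not above 0.1 throughout and the labels give the numbers no further meaning, the libraries were not treated as paired. Sites with pileups of 2 to 5 fragments are at the limit of these libraries, and with 1 ChIP sample per condition no value here measures variation between animals.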
